A study of Mus musculus with 6 samples.

Results

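The genes described here encode the chaperones, stress sensors, degradation factors and translocation channel of the endoplasmic reticulum (ER). They were chosen by name and not by a measured value, although earlier results of these data were known at that time. All 32 of them were found among the 16403 genes of the deposited table. They were measured in LSK cells, sorted from mouse bone marrow as lineage-negative, Sca-1-positive and Kit-positive, a fraction with the blood stem cells and the early progenitors. One group of C57BL/6 mice carried a ligature on the teeth, which causes periodontitis (ligature-induced periodontitis, LIP), and the other group had no ligature (NL). Both groups were of this strain, and marrow was taken on day 7. Each group had 3 libraries of polyA-selected RNA, and each library pooled sorted cells of 3 mice, so the spread between libraries is a spread between pools and not between single mice. Age is not given in the labels used here. The comparison asks how periodontitis, an inflammation distant from the marrow, affects the transcriptome of these progenitors.

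Proteins that enter the secretory pathway are threaded through the Sec61 channel into the ER, where chaperones and disulfide isomerases fold them. When unfolded protein accumulates, the membrane sensors IRE1 (encoded by Ern1), PERK (Eif2ak3) and ATF6 start the unfolded protein response, which raises chaperone and degradation genes and slows translation. Proteins that do not fold are drawn back to the cytosol by ER-associated degradation and destroyed by the proteasome. Blood stem cells are known to make protein slowly and to be sensitive to ER stress.

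Many target genes of ATF6 and XBP1 carry an ER stress response element (ERSE) near the start of transcription, the letters CCAAT and CCACG held apart by 9 bases of any kind. These letters were looked for on both strands of the RefSeq promoter windows of build GRCm38, which span 250 bases before to 50 bases after each start. Of the 25 members with such a window, 7 held the full element (28%), against 39 of all 32851 windows (0.119%) and 18 of the 10088 tested genes with a window (0.178%). The list was chosen for genes of the ER and its stress response, so this share describes that choice and was not tested. The 7 were Hspa5, Pdia6, Calr, Creld2, Syvn1, Hsp90b1 and Canx, and Hsp90b1 held it 2 times. Herpud1 held the related letters ATTGGGCCACG, a match to ERSE-II (ATTGG and CCACG with 1 base between) that runs from -52 to -42 relative to its start. ERSE-II was held by 0.0365% of all windows. The letters TGACGTGG, which XBP1 can bind, were found in none of the 25 and in 0.676% of all windows. The letters TGATGNAA, part of the element bound by ATF4 with C/EBP partners, were found in Herpud1 alone and in 3.97% of all windows. None of these matches overlapped another. Atf6, Derl1, Hyou1, Manf, Ppp1r15b, Sec61a1 and Ssr2 had no entry. The window of Edem1 (chromosome 6, 108828391 to 108828690) lies inside its gene span, which begins at 108824045. The bases around that first position of Edem1 were therefore not searched. Shown are the 250 bases before the start in the 4 ERSE-bearing members with the smallest p, because they share the element while Hspa5 fell, Pdia6 and Calr rose and Creld2 was not called in LIP. The element runs from -65 to -47 in Hspa5 and from -98 to -80 in Pdia6, and on the opposite strand from -162 to -144 in Calr and from -126 to -108 in Creld2. Capitals mark the fixed letters of ERSE, read on the gene's strand from 5′ to 3′.
Hspa5, chr2:34771840-34772089, plus strand: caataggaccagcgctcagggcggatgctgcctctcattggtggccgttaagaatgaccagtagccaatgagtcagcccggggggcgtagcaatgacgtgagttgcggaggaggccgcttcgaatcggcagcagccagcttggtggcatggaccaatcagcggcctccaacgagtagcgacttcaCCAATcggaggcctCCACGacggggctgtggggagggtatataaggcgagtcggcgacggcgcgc
Pdia6, chr12:17266339-17266588, plus strand: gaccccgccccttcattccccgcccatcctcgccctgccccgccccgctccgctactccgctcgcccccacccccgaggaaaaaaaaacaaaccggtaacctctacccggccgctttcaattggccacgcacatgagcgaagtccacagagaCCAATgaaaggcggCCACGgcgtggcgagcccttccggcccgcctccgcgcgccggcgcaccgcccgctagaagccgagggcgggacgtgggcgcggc
Calr, chr8:84846932-84847181, minus strand: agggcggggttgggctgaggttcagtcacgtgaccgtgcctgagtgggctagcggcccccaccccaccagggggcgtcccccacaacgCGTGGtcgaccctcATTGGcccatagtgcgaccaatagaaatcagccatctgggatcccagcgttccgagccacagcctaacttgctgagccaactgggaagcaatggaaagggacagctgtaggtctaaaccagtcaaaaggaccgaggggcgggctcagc
Creld2, chr15:88819396-88819645, plus strand: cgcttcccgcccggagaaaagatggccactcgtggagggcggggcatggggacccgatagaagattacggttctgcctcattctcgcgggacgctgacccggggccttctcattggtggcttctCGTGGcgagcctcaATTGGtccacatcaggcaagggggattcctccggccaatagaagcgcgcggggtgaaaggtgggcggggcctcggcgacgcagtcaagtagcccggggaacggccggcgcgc

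Per unit of transcript length, the members ranged from 12.2 to 1275 TPM in unligated mice (the authors' TPM, a level corrected for transcript length and library size). Calr, a lectin chaperone that also stores calcium, stood highest with 1275 ± 35.5 TPM (SD, n = 3), followed by the disulfide isomerase gene P4hb with 536 ± 9.63 TPM. Sec61b (483 ± 1.87 TPM), Hspa5 (463 ± 5.57 TPM) and Hsp90b1 (439 ± 8.31 TPM) came next, and each of these stood above the following one in all 3 NL libraries. The 3 sensor genes were among the lowest, with 18.7 ± 0.983 TPM for Ern1, 16.6 ± 0.0208 for Atf6 and 12.2 ± 0.555 for Eif2ak3. Several neighbours in this order overlapped between libraries, such as Pdia4, Herpud1, Manf and Sec61a1 between 123 and 136 TPM. The order is a description and was not tested.

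**Figure D1:**
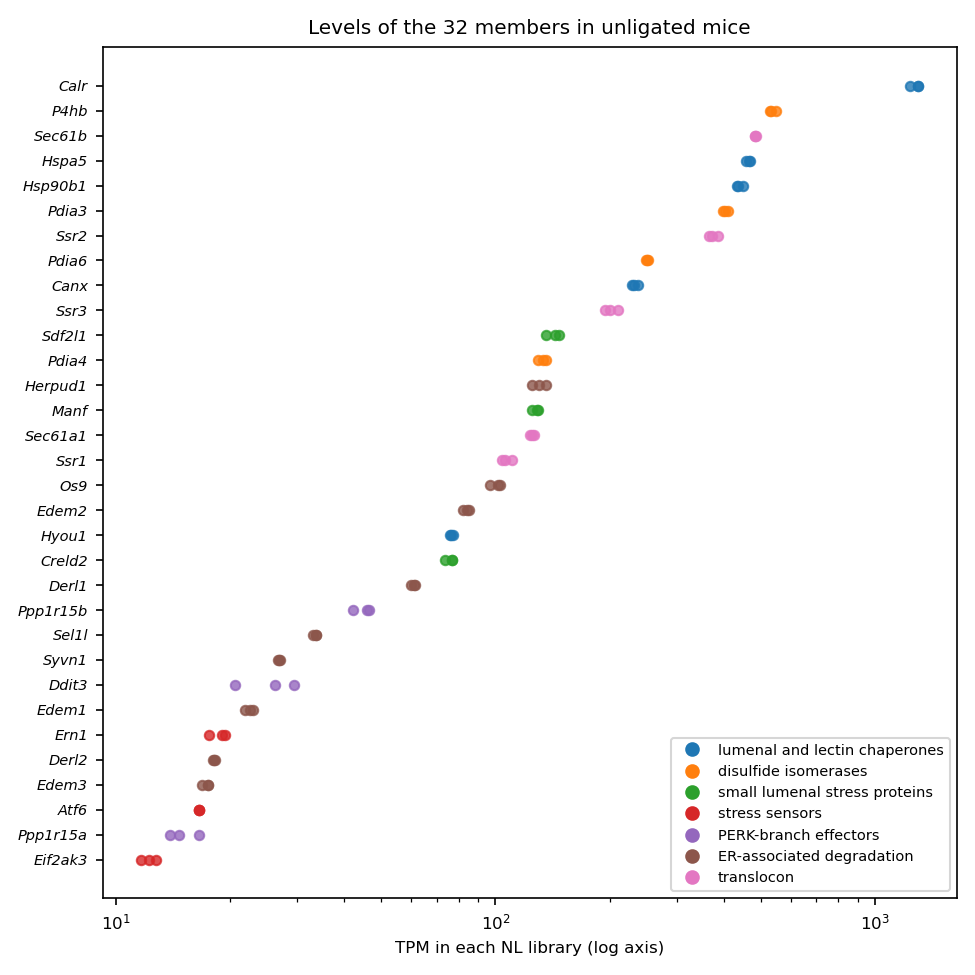
Level of each of the 32 members in the 3 NL libraries, in the authors' TPM on a log axis, ordered by mean and coloured by role. Calr stands alone at the top with 1275 TPM, and the 3 sensor genes lie between 12.2 and 18.7 TPM.

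In LIP the members did not move as a block. All 32 were tested, 6 were called higher and 5 lower, and 21 were not called, by edgeR's quasi-likelihood test with Benjamini-Hochberg adjustment over 12564 genes and a threshold of 0.05. The higher ones were Ern1, Hyou1, Os9, Pdia6, Edem1 and Calr, and the lower ones were Ddit3, Herpud1, Sec61b, Manf and Hspa5. Over all tested genes 14.1% were called higher and 15.8% lower, 29.9% in all, so the 34.4% of members called is near that background. The counts by role given below stand beside the same shares and were not tested. The median log2 fold change, LIP over NL, was 0.021 over the members and -0.00072 over all tested genes. The median absolute value was 0.064 over the members and 0.10 over all tested genes. Changes were small, with called rises between 7.54% and 16.2% and a largest fall of Ddit3 by 26.3%. With libraries scaled by total counts alone, 12 members were higher and the same 5 lower, while the median of all genes shifted to 0.044. On the TPM scale the median tested gene was higher in LIP by 0.13 on the log2 scale, so changes are given in CPM, counts scaled to the library total with TMM factors, in which that median is near 0. In TPM 27 of the 32 members had a positive log2 ratio. Of the members called lower, Hspa5, Manf and Ddit3 overlapped between the groups in TPM, and Herpud1 and Sec61b did not.

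With each gene set against its NL mean, the member median of a library was between -0.0011 and 0.0047 in NL and was 0.027, 0.015 and -0.0038 in LIP-1, LIP-2 and LIP-3. The groups therefore overlapped in this summary. Gene by gene, the 3 LIP values were all higher than the 3 NL values in 9 members and all lower in 7, against 19.9% and 21% of all tested genes. The summed level of the 32 members was between 8432 and 8573 CPM in NL and between 8463 and 8711 CPM in LIP. In such bulk samples a change in the share of cells of one type and a change in RNA per cell cannot be told apart.

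**Figure D2:**
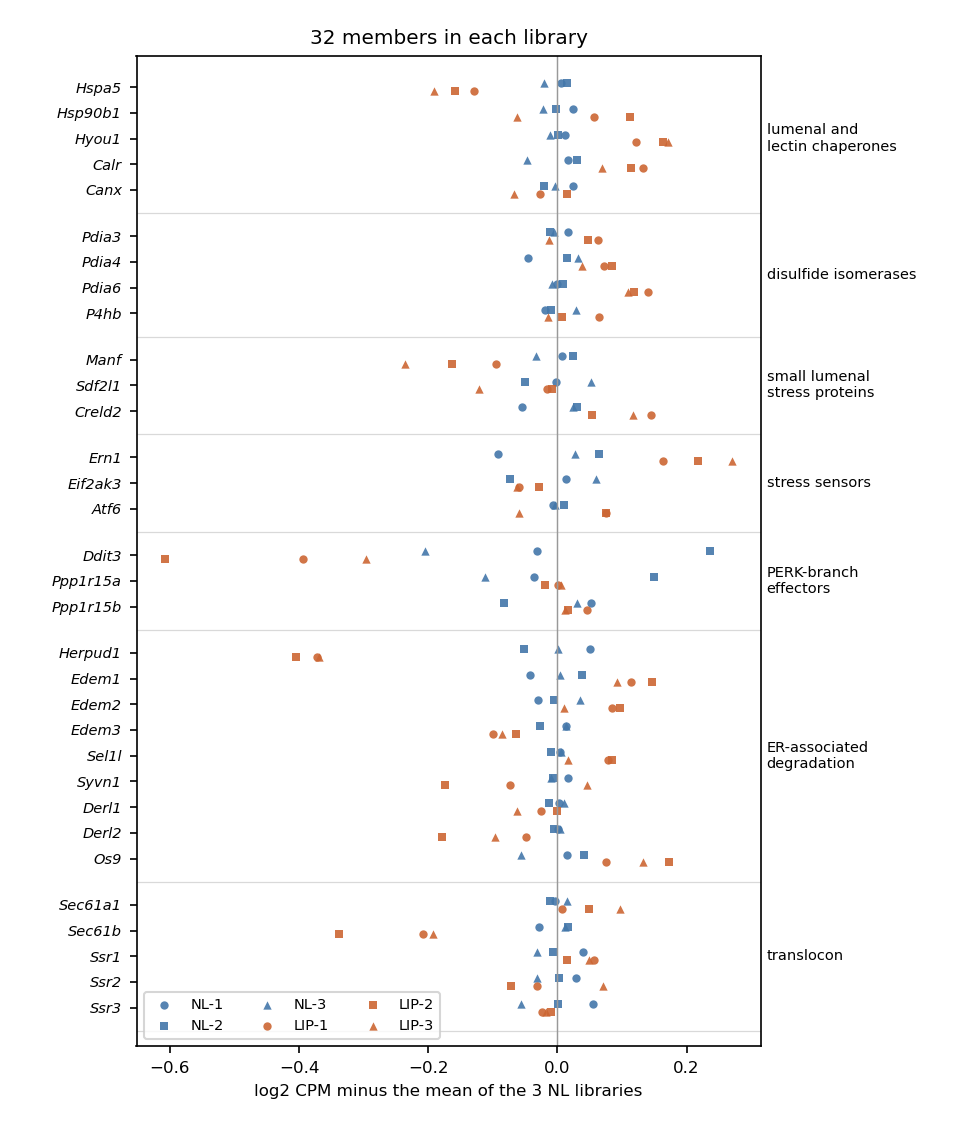
Each member in each library as log2 CPM minus the mean of the 3 NL libraries, NL in blue and LIP in orange, grouped by role; symbols mark replicate numbers, which do not pair libraries. Herpud1, Ddit3 and Sec61b lie farthest to the left in LIP and Ern1 farthest to the right, while most others stay within 0.2 of 0.

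Transcript length and other gene groups moved with the comparison. Of 1049 tested genes with an effective length under 1000 bases, 45.0% were lower and 4.10% higher in LIP, and of 1992 genes over 5000 bases 6.98% were lower and 23.5% higher. The members' median effective length, 2738 bases, was close to the 2756 bases of all tested genes. An offset for this trend in each library gave 7 members higher and 5 lower, against 13.3% of all genes in each direction. Of the calls above, 5 of 6 rises and 4 of 5 falls were kept with the offset; Edem1 and Sec61b were lost, and Creld2, Ssr2 and Edem3 were gained. Of 13 tested heat shock genes 11 fell, with a median log2 fold change of -0.41 over the 13. Beside cytosolic chaperone genes this list holds Hspd1 and Hspe1 of the mitochondrial chaperonin and the transcription factor gene Hsf1. Hspa1a and Hspa1b, near-identical copies for the inducible Hsp70, fell most, by 5.24 and 4.99 on the log2 scale. The list's summed level was between 12586 and 12939 CPM in NL and between 10324 and 10913 CPM in LIP. The part of the heat shock difference in the members' changes was not tested.

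**Figure D3:**
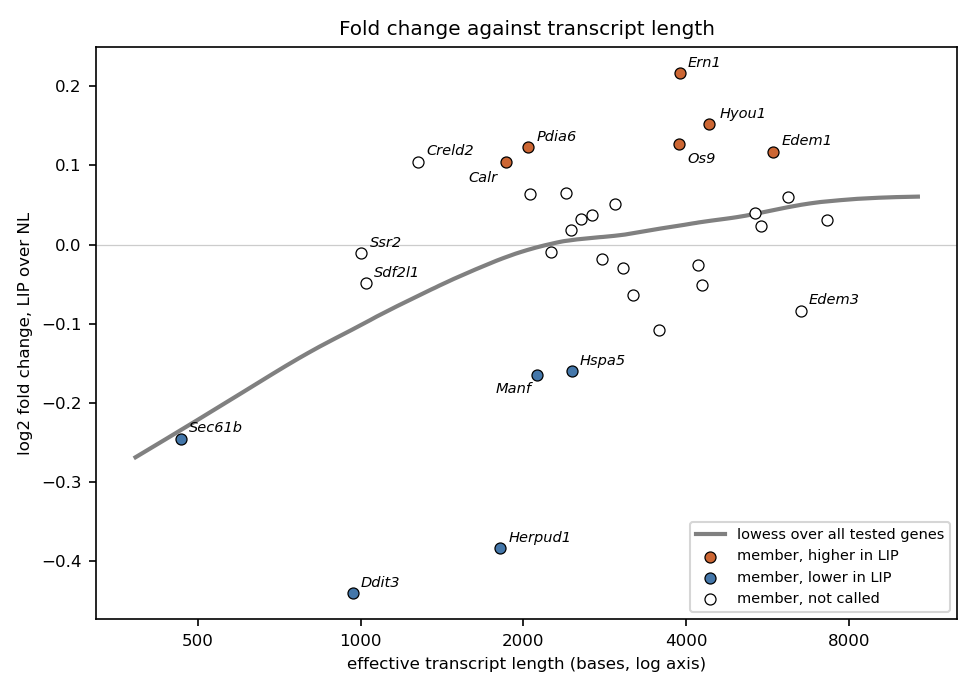
Log2 fold change of each member against its effective transcript length in bases on a log axis, with a lowess curve over all tested genes. Sec61b lies on the curve, whereas Herpud1, Ddit3, Manf and Hspa5 lie below it and Ern1, Hyou1, Pdia6 and Calr above it.

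Among the chaperones of the ER lumen and membrane, 2 of 5 rose, 1 fell and 2 were not called. Hspa5 encodes BiP, the ER Hsp70 that binds unfolded chains and holds the sensors inactive (chromosome 2, 34772090 to 34776529). It measured 697, 702 and 685 CPM in NL and 635, 622 and 609 CPM in LIP. In CPM every LIP library was below every NL library, whereas in TPM the groups overlapped. Hspa5 fell by 0.16 ± 0.032 on the log2 scale (SE), with an adjusted p of 9.98e-05. Hyou1, a large ER chaperone that acts as a nucleotide exchange factor for BiP (chromosome 9, 44379490 to 44392369), went the other way. Its values were 209, 207 and 206 CPM in NL and 226, 232 and 234 CPM in LIP, without overlap. The log2 fold change of Hyou1 was 0.15 ± 0.033, with an adjusted p of 0.000206.

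Calreticulin and calnexin hold glycoproteins while they fold, calreticulin in the lumen and calnexin in the membrane. Calr (chromosome 8, 84842088 to 84846931) measured 1463, 1478 and 1401 CPM in NL and 1586, 1566 and 1518 CPM in LIP. Every LIP value exceeded every NL value, and Calr rose by 0.10 ± 0.034 with an adjusted p of 0.0152. That call was lost without NL replicate 3 (adjusted p 0.113) and without LIP replicate 1 (adjusted p 0.0669). Canx, at 598 ± 9.39 CPM in NL and 587 ± 16.9 CPM in LIP, was not called. Hsp90b1 encodes the ER Hsp90 (GRP94), which folds integrins and Toll-like receptors. It measured 729, 717 and 707 CPM in NL and 746, 776 and 687 CPM in LIP, so that LIP-3 was the lowest library and LIP-2 the highest. Its adjusted p was 0.461, and Hsp90b1 was called higher (log2 fold change 0.10) with an offset for both length and GC content.

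Of the 4 disulfide isomerases, which make and reshuffle disulfide bonds, 1 was called, and it rose. Pdia6 (chromosome 12, 17266589 to 17284785) measured 312, 314 and 311 CPM in NL and 344, 339 and 337 CPM in LIP. The gap between the groups was wider than the range within either, and Pdia6 rose by 0.12 ± 0.031 with an adjusted p of 0.00182. Pdia4 stood at 195 ± 5.48 CPM in NL and 204 ± 3.47 CPM in LIP (adjusted p 0.142), and was called higher with total counts alone. Pdia3, which works with calreticulin on glycoproteins and on MHC class I molecules, had an adjusted p of 0.487. P4hb, the archetypal isomerase and also a subunit of collagen prolyl hydroxylase, had an adjusted p of 0.715. For P4hb the 95% interval of the log2 fold change ran from -0.047 to 0.085.

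Of the 3 small lumenal proteins induced by ER stress, 1 was called, and it fell. Manf, a secreted and ER-retained protein that binds BiP (chromosome 9, 106888753 to 106891938), measured 166, 168 and 162 CPM in NL. In LIP it measured 155, 148 and 140.5 CPM, all below NL, and Manf fell by 0.16 ± 0.036 with an adjusted p of 0.000306. Creld2, at 56.9, 60.4 and 60.2 CPM in NL and 65.4, 61.4 and 64.2 CPM in LIP, did not overlap between groups but had an adjusted p of 0.0694. With the length offset Creld2 was called higher, at 0.17 with an adjusted p of 0.00209. Sdf2l1, part of a BiP cochaperone complex, had an adjusted p of 0.403 and a value that turned from -0.048 to 0.052 with that offset.

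One of the 3 sensor genes changed. Ern1 encodes IRE1, the kinase and ribonuclease that splices Xbp1 mRNA (chromosome 11, 106397620 to 106487796). It measured 41.7, 46.5 and 45.3 CPM in NL and 49.8, 51.7 and 53.6 CPM in LIP. No LIP library fell within the NL range, and Ern1 had the largest rise of the members, 0.22 ± 0.050 on the log2 scale with an adjusted p of 0.000541. Eif2ak3, the kinase gene of the branch that slows translation, measured 32.3, 30.4 and 33.4 CPM in NL and 30.7, 31.4 and 30.6 CPM in LIP, with overlap (adjusted p 0.538). Atf6, whose product is cut in the Golgi to release a transcription factor, stood at 73.9 ± 0.479 and 75.5 ± 4.01 CPM (adjusted p 0.629). The 95% intervals of the log2 fold change ran from -0.17 to 0.062 for Eif2ak3 and from -0.054 to 0.12 for Atf6. Whether Ern1 differed from the other sensor genes in its change was not tested.

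Downstream of PERK, Ddit3 encodes CHOP, a transcription factor linked to death under lasting ER stress (chromosome 10, 127290793 to 127296291). Its values were 14.5, 17.5 and 12.9 CPM in NL and 11.3, 9.72 and 12.1 CPM in LIP. In CPM the groups did not overlap, although LIP-3 and NL-3 were close, and Ddit3 fell by 0.44 ± 0.097 with an adjusted p of 0.000546. With the length offset the fall was smaller, 0.33 on the log2 scale with an adjusted p of 0.00761. Ddit3 is short, at 967 bases of effective length, and its span overlaps those of Mbd6 and Mars1 in RefSeq. Ppp1r15a and Ppp1r15b encode the phosphatase subunits that restore translation after PERK has acted, the first inducible and the second constitutive. Neither was called, with 20.7 ± 1.97 and 20.6 ± 0.188 CPM in NL and LIP for Ppp1r15a and adjusted p of 0.947 and 0.671.

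In ER-associated degradation, 2 of 9 members rose and 1 fell. Herpud1, a stress-inducible membrane protein that gathers the degradation complex (chromosome 8, 94386429 to 94395371), had the smallest adjusted p of all members. It measured 149, 139 and 144 CPM in NL and 111, 109 and 112 CPM in LIP, so that the groups were far apart relative to their own ranges. Herpud1 fell by 0.38 ± 0.037 on the log2 scale, or 23.3%, with an adjusted p of 1.2e-12, and it is the member with the ERSE-II letters named above. Os9, a lectin that delivers misfolded glycoproteins to the complex (chromosome 10, 127094259 to 127121160), measured 241, 245 and 229 CPM in NL. In LIP it measured 251, 268 and 261 CPM, above NL in every library, and Os9 rose by 0.13 ± 0.034 with an adjusted p of 0.00256. With the length and GC offset the rise of Os9 was 0.050, with an adjusted p of 0.208.

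The 3 EDEM genes encode mannosidase-like proteins that mark glycoproteins for degradation, and 1 of them was called. Edem1 (chromosome 6, 108824045 to 108859356) measured 77.3, 81.8 and 79.8 CPM in NL and 86.2, 88.1 and 84.9 CPM in LIP. It was separate between groups and rose by 0.12 ± 0.040, but its adjusted p of 0.0214 became 0.0753 with DESeq2 and 0.15 with the length offset. The call of Edem1 was also lost without NL replicate 1 (adjusted p 0.101) and without LIP replicate 2 (adjusted p 0.0853). Edem2 stood at 106 ± 2.41 and 111 ± 3.59 CPM, with an adjusted p of 0.213. Edem3 was lower in every LIP library (64.4, 66.0 and 65.0 CPM, against 69.6, 67.7 and 69.7 CPM), with an adjusted p of 0.136. It was called lower with the length offset at -0.13, but not with the length and GC offset (-0.083, adjusted p 0.121). The scaffold gene Sel1l and the ubiquitin ligase gene Syvn1, the core of the complex, had adjusted p of 0.214 and 0.354. Syvn1 was called lower with the length and GC offset (-0.13, adjusted p 0.0313). Of the channel-forming derlins, Derl1 had an adjusted p of 0.6 and Derl2 of 0.118. Derl2 was the only member with decimals in its deposited counts, and the origin of the decimals was not tested.

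At the translocon, 1 of 5 members was called. Sec61b, a small subunit of the Sec61 channel (chromosome 4, 47474661 to 47483233), measured 135, 139 and 139 CPM in NL and 119, 109 and 120.2 CPM in LIP. It was lower in every LIP library and fell by 0.25 ± 0.038 with an adjusted p of 6.37e-07. Sec61b has the shortest effective length of the members, 465 bases, and with the length offset its log2 fold change was -0.0076 with an adjusted p of 0.902. Sec61a1, the pore-forming subunit, stood at 225 ± 2.07 and 234 ± 7.23 CPM, with an adjusted p of 0.246. Ssr1, Ssr2 and Ssr3 encode subunits of the translocon-associated TRAP complex and had adjusted p of 0.376, 0.862 and 0.729. Ssr2, at 1002 bases, turned from -0.010 to 0.092 with the length offset, where it was called with an adjusted p of 0.0263. With the length and GC offset Ssr2 was at 0.042 and not called (adjusted p 0.312).

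**Figure D4:**
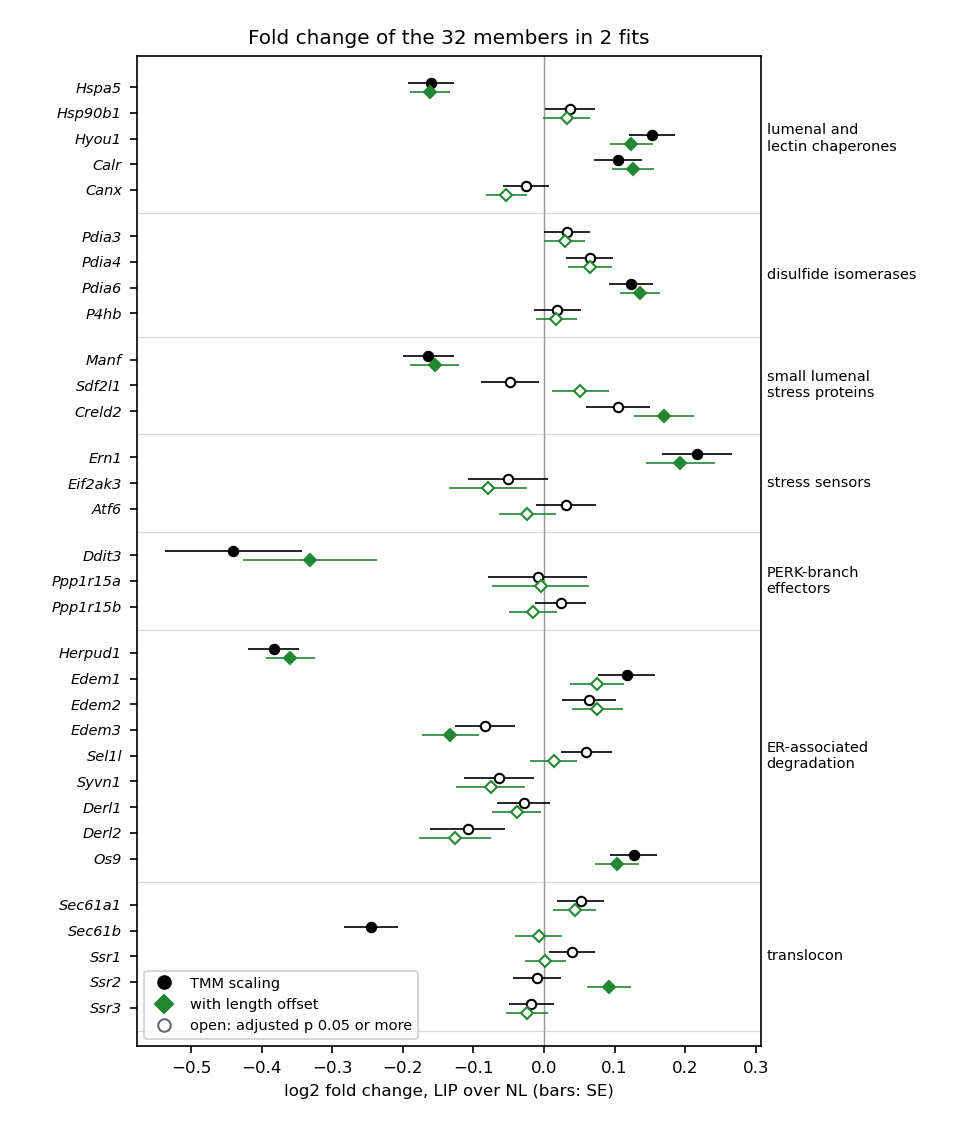
Log2 fold change, LIP over NL, of the 32 members with standard errors, in the fit with TMM scaling (black circles) and with the length offset (green diamonds); filled symbols have an adjusted p below 0.05. Sec61b moves from -0.25 to -0.0076 with the offset, and Herpud1 stays near -0.36.

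Across 19 alternative fits, 7 of the 11 called members kept their call and direction in each one: Hspa5, Hyou1, Pdia6, Manf, Ern1, Ddit3 and Herpud1. The other 4, Calr, Edem1, Os9 and Sec61b, lost it in at least 1 fit named above. For the 21 uncalled members the 95% intervals of the log2 fold change lay between -0.21 and 0.19. Among the 7 members with ERSE letters 2 rose, 1 fell and 4 were not called, and among the 18 with a window but no ERSE 3 rose, 3 fell and 12 were not called. Over all tested genes 14.1% were called higher and 15.8% lower, and this split by letters was not tested. Edem1, whose window lies inside its gene span, is among the 18. Some called members overlap another gene in RefSeq: Hspa5 with Rabepk, Pdia6 with Atp6v1c2, and Os9 and Edem1 each with a non-coding gene. No source used here says whether counting used strand, so reads of overlapping genes may be shared.

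Other genes of the same pathway, from 4 lists chosen by function, were also split. Of 101 tested genes 15 were higher and 19 lower, or 16 and 12 with the length offset and 26 and 13 with total counts alone. Over all tested genes 14.1% were higher and 15.8% lower, or 13.3% in each direction with the length offset, so these counts are near that background. Their median log2 fold change was -0.013. Among transcription factors and their targets 3 of 21 rose and 2 fell. Eif2s1, the translation factor subunit that PERK phosphorylates, fell by 0.18 and the stress-inducible Ddit4 by 0.25, while Creb3l2 and Eif2ak1 rose by 0.17 and 0.12 and Tmbim6, outside the naming rule, by 0.082. With the length offset the call of Creb3l2 was lost (adjusted p 0.0654). Xbp1 and Atf4, the main transcription factors of the IRE1 and PERK branches, were named for that role after their values were seen. The log2 fold change was -0.050 for Xbp1 (adjusted p 0.29) and -0.038 for Atf4 (adjusted p 0.458). With the length and GC offset Xbp1 was called lower (-0.0785, adjusted p 0.0487), and Atf4 was not called (adjusted p 0.232). Gene-level counts do not show the splicing of Xbp1 or the translation of Atf4.

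Among other folding and glycan genes 6 of 26 rose and 5 fell. Dnajb9, a BiP cochaperone that restrains IRE1, measured 46.5, 46.0 and 44.6 CPM in NL and 33.1, 33.6 and 33.0 CPM in LIP. The groups were far apart, and Dnajb9 fell by 0.46 ± 0.052 with an adjusted p of 2.09e-10. The largest fall among the members was 0.44 ± 0.097 for Ddit3, and its difference from Dnajb9 was not tested. Selenof fell by 0.23, and the disulfide isomerase gene Txndc5 and the glucosidase gene Ganab rose by 0.20 and 0.18. Among other degradation genes 2 of 22 rose and 1 fell, with Derl3 higher by 0.63 at a low level of 2.88 ± 0.630 CPM in NL, Sec16a higher by 0.22 and Ubxn4 lower by 0.16. Among other translocon and signal genes 4 of 32 rose and 11 fell, against 14.1% and 15.8% of all tested genes. Under the length offset the counts were 4 and 5, against 13.3% of all tested genes in each direction. The 4 that rose were Stt3a, Sec63, Rpn2 and Tmed10. The signal recognition particle gene Srp9 fell by 0.30, the channel subunit gene Sec61g by 0.33, the oligosaccharyltransferase gene Ost4 by 0.26 and the signal peptidase gene Spcs1 by 0.27. With the length offset the call of Ost4 was lost (adjusted p 0.749). Sec61g, Ost4, Spcs1 and Ubxn4 had decimals in their counts.

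Markers of other cell types moved beside the members, and their part in the members' changes was not tested. Over all tested genes 14.1% were called higher and 15.8% lower, or 13.3% in each direction with the length offset. The sort markers were present in all libraries, with Kit at 512 ± 3.73 CPM in NL and higher in LIP by 0.18, and Ly6a, which encodes Sca-1, at 38.7 ± 0.803 CPM in NL and not called. Of 9 stem cell markers 2 rose, Kit and Meis1. All 10 granulocyte-monocyte progenitor markers rose, from a summed level of 6752 to 6777 CPM in NL to 8201 to 8610 CPM in LIP. All 10 tested neutrophil markers rose, from 277 to 294 CPM to 406 to 427 CPM, and the defining marker Ly6g, with 0 to 3 counts per library, was not tested. Plasma cells are rich in ER, and of their 11 markers 6 rose (Jchain, Mzb1, Prdm1, Irf4, Derl3 and Pou2af1), with summed levels of 565 to 575 CPM in NL and 645 to 680 CPM in LIP. The other 5 were not called, among them Xbp1 at 167 ± 3.61 CPM in NL and 162 ± 3.78 CPM in LIP. Derl3 and Xbp1 are also on the pathway lists above, and whether plasma cells were present was not tested. In the B lineage 7 of 11 rose, from 96.1 to 100.0 CPM to 119 to 124 CPM. In plasmacytoid dendritic cells Siglech and Spib rose and Ccr9 fell, of 7, with sums of 239 to 246 CPM and 243 to 245 CPM. Of 8 erythroid markers Slc4a1 rose and Car2, Car1 and Klf1 fell, and their sum was lower in every LIP library (1228 to 1256 CPM in NL and 1085 to 1139 CPM in LIP). With the length offset Car2 alone of the 8 was called lower, and Slc4a1, Hba-a1 and Hbb-bs were called higher. Of 7 megakaryocyte markers Itgb3, Ppbp and Vwf rose (175 to 191 CPM and 194 to 203 CPM). Of 8 mast cell and basophil markers Hdc and Prss34 rose and Cpa3, Ms4a2 and Cma1 fell (308 to 318 CPM and 310 to 322 CPM). Of 7 T and NK cell markers Nkg7, Il2rb, Cd3e and Cd4 rose (143 to 152 CPM and 160 to 175 CPM). With the length offset 5 of 11 plasma cell and 8 of 11 B lineage markers were called higher. Under that offset 4 plasmacytoid dendritic cell markers were called higher and 1 lower, and 2 megakaryocyte markers were called higher. Of the mast cell and basophil markers 3 were then higher and 3 lower.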

How the data were processed

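The data are bulk RNA sequencing of 6 libraries, 3 LIP and 3 NL. Per the file headers, the authors deposited a read count, an FPKM and a TPM for each gene and library; part of the read counts have decimals, so the values the authors deposited are estimated counts. Per the submitters' processing notes, STAR, HTSeq and GRCm38 were used, without versions or roles. The tool that made the counts was not given in the sources used here. The deposited FPKM served, with the counts, to derive each gene's effective length, and the deposited TPM served to order levels between genes. The 6 columns of group means by the authors were not used.

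Library totals were 17780853 to 18841103 counts, and 3 counts correspond to 0.159 to 0.169 CPM, a floor for counting error only. The test had been planned for counts, and estimated counts were rounded first. Replicates of a group differed by more than sampling noise, with chi-square per degree of freedom between 1.87 and 2.78. None was therefore counted as a second reading of the same library. These values cannot show whether the pools were independent of each other. The spread between libraries was small, with a common biological coefficient of variation of 0.028 in edgeR, and at such a spread small changes can be called. With filterByExpr in edgeR 4.0.16 (R 4.3.3) 12564 of 16403 genes were kept, scaled with TMM and tested with glmQLFit (robust) and glmQLFTest, group as the only term. Adjusted p are Benjamini-Hochberg values over all tested genes. Fold changes are LIP over NL, SE is derived from the test statistic, and intervals use the same test. The scripts were tested on simulated data.

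Alternatives were DESeq2 1.42.0, limma-voom (limma 3.58.1), other scaling and filters, a replicate block, length offsets (lowess, span 0.3), whole counts only and leaving out each library. An offset for length and GC content was added after the data were seen (98.5% of tested genes had a GC value from GENCODE transcripts). The members and the gene lists were chosen with earlier results of these data known. P-values rest on the spread between pools of 3 mice. With 4 residual degrees of freedom per gene, the edgeR fit also draws each gene's variance toward that of the other tested genes. All members are named; called ones are given library by library, and in each other pathway list the called genes with the 4 smallest p are named. The other lists are UPR transcription factors and targets, folding and glycan genes, degradation genes, translocon genes, heat shock genes and markers of cell types. These types are stem cells, granulocyte-monocyte progenitors, neutrophils, B lineage, plasma cells, plasmacytoid dendritic cells, erythroid cells, megakaryocytes, mast cells and basophils, and T and NK cells. Of the erythroid list, 1 marker is not reported here. Gene positions and promoter windows are from RefSeq on GRCm38.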

Additional observations from a re-analysis of the deposited data

How the results depend on the processing

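The number of members called was 5 or 6 higher and 5 lower in 16 of 19 alternative fits. The length offset gave 7 and 5, with or without the replicate block. Total counts alone gave 12 members higher, 26 other pathway genes higher, 2756 and 1301 of all genes higher and lower, a member median of 0.065 and an all-gene median of 0.044. DESeq2 called 1160 genes higher and 1300 lower, against 1776 and 1984. The length offset left 12 other pathway genes lower, against 19. Ssr2 turned from -0.010 to 0.092 with the length offset and to 0.092 with the replicate block and the length offset; these offsets remove each library's trend with length, and the cause of that trend was not tested. Leaving out each library in turn gave member medians from 0.0046 to 0.029, the lowest without LIP replicate 1, with 5 or 6 members higher and 5 lower, and 10 to 15 other pathway genes higher. The labels do not say that replicate numbers pair libraries, and deviations of same-numbered libraries correlated at 0.038, -0.016 and -0.13, against -0.12 to 0.15 for other numbers. The replicate block alone changed no call among the members (6 higher, 5 lower), and gave 1750 and 1979 of all genes. Every member had well over 100 counts in each library, so that counting depth limits mainly Ddit3, the lowest of them.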

Other observations

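The ERSE letters were also present in the windows of 11 tested genes outside the members, a set listed after the data were seen. Of these 3 were called by edgeR's test, each of them higher: Derl3, a derlin of secretory cells, by 0.63 ± 0.16 on the log2 scale (adjusted p 0.00161), Zfp57 by 0.37 ± 0.14 (adjusted p 0.0321) and Hnrnpa3 by 0.096 ± 0.034 (adjusted p 0.0282). Over all tested genes 29.9% were called, 14.1% higher and 15.8% lower, and Derl3 is also among the plasma cell markers above. With the length offset Hnrnpa3 was no longer called (adjusted p 0.09), and Derl3 and Zfp57 were. Among the other 8, the log2 fold change was -0.033 for Dnajc3, an inhibitor of PERK, -0.018 for the oxidase gene Ero1lb and 0.028 for the mannosyltransferase gene Alg12, with adjusted p of 0.542, 0.861 and 0.841. These values describe a letter match and the genes beside it, and no test of the set was made.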
